A study of Drosophila melanogaster with 2 samples.

Results

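The Rab GTPase genes were described here for binding of Eip74EF, an ETS-domain transcription factor induced by the steroid hormone ecdysone, in Drosophila melanogaster embryos. Members were the protein-coding genes of the Ensembl annotation named Rab or RabX and a digit, with or without a closing letter code. This gave 33 genes of 13945 protein-coding genes, and genes for regulators named after a Rab, such as Rab3-GEF, were not counted. Chromatin immunoprecipitation and sequencing was done on whole embryos of mixed sex collected 8 to 16 h into development, from the Eip74EF-GFP strain, a transgenic line with Eip74EF tagged by eGFP at its C terminus. The precipitation used an antibody against the tag, although 1 label field names Eip74EF itself as the antibody target. A separate age field in the labels conflicts with the collection window and was not used. Biological replicates 1 and 3 of this line formed the only group, with no untagged or input sample among the samples analysed. What was measured were peaks as deposited by the authors: a list per replicate, a list from the pooled replicates (30000 peaks) and a list of 5004 peaks that passed their irreproducible discovery rate (IDR) step. All 5004 were also the strongest of the pooled list. The authors' signal of a peak, its enrichment over a control on an unstated scale, ranked peaks within a list. It ran from 185 to 3792 in the IDR list and down to 37.4 in the pooled list. Read depth is unknown, since no read counts were used. In whole embryos, strong binding in few cells and weak binding in many cannot be told apart.

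Rab proteins are small GTPases of the Ras superfamily that mark membranes and direct vesicle traffic. Each switches between a GTP-bound form, which sits on a membrane and recruits effectors such as tethers and motors, and a GDP-bound form, which a dissociation inhibitor keeps in the cytosol. Exchange factors load GTP, GTPase-activating proteins end the active state, and an escort protein presents new Rabs for lipid attachment. Different Rabs serve the secretory pathway, early and recycling endosomes, late endosomes and lysosomes, and regulated secretion. In embryos, this traffic supports the growth of epithelia, trachea and nervous system.

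Few Rab promoters carried an Eip74EF peak of the IDR list. An IDR summit lay within 500 bp of a transcription start site (TSS) of 3 of the 33 genes, Rab5, Rab8 and Rab23 (9.09%, 95% exact binomial interval 1.92 to 24.3%, counting error over genes only). Among all protein-coding genes the share was 15.6%, inside that interval. From 2 kb upstream to the gene end, 9 Rab genes held an IDR summit (27.3%, interval 13.3 to 45.5%), close to the 24.7% of all genes. The 6 genes added by the wider window were Rab9, Rab11, Rab14, Rab18, Rab30 and Rab32. For both windows the share of all genes lay inside the interval of the Rab genes.

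In the pooled list, which includes the IDR peaks, summits lay at more Rab promoters. Of the 33 genes, 16 had a summit of the pooled list within 500 bp of a TSS (48.5%, exact binomial interval 30.8 to 66.5%), against 38.7% of all genes. In the wider window 22 did (66.7%, interval 48.2 to 82.0%), against 48.9%. For both windows the share of all genes again lay inside the interval of the Rab genes. For 13 of the 16 genes the promoter summits were all too weak for the IDR list, and 11 Rab genes had no pooled summit in either window.

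**Figure D1:**
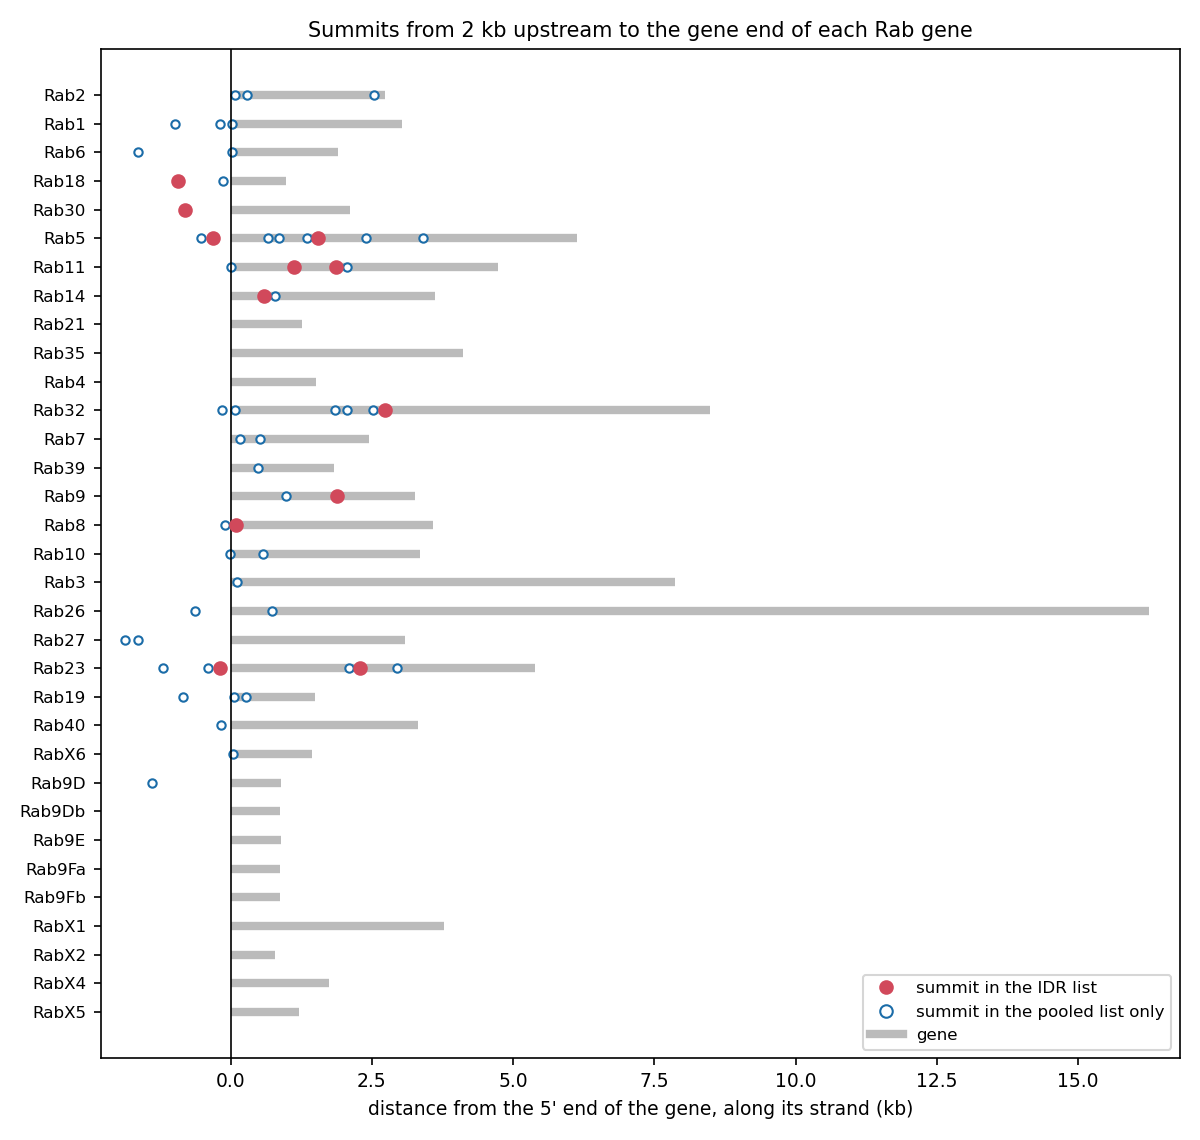
Position of summits (horizontal axis, kb from the gene's 5′ end along its strand) from 2 kb upstream to the end of each of the 33 Rab genes. Filled points are IDR summits, open points summits of the pooled list alone, and grey bars the genes. The 12 IDR summits fall in 9 genes, 7 of them in introns.

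The 9 genes held 12 IDR summits. By the annotation of the Rab gene itself, 7 of these were intronic, 4 lay upstream and 1 lay in a 5′ UTR. Of the 12, 4 were within 500 bp of the Rab gene's own TSS. The other 8 were 6 intronic and 2 upstream summits. Over the whole IDR list, 2063 of 5004 summits were at a promoter. Intronic and upstream summits were not counted over that list, so no excess at Rab genes can be read from these counts. Signals had a median of 302 and a range of 201 to 752, against a median of 282 over all IDR peaks. Both replicates had a summit within 100 bp of each of the 12, as for 92.5% of all IDR summits.

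Sequences are shown for 6 of these summits, the promoter summits of Rab5 and Rab23 and intronic summits of Rab11, Rab23, Rab14 and Rab9, because ETS factors are known to bind sites built on GGAA. The intronic summits were added to this choice after their values were seen. Each covers the summit and 50 bp on either side in the dm6 reference (RefSeq copy), read on the strand of the Rab gene, and capitals mark GGAA or its complement TTCC. Windows that run into annotated UTRs (Rab8, Rab18 and the weaker Rab5 summit) are not shown, nor are the Rab32, Rab30 and weaker Rab11 windows.

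Rab5, summit 215 bp upstream of an internal TSS, chr2L:2363669-2363769, minus strand: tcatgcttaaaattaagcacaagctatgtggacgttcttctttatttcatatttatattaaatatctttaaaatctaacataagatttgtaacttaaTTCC

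Rab23, summit 190 bp upstream of the TSS, chr3R:5685574-5685674, minus strand: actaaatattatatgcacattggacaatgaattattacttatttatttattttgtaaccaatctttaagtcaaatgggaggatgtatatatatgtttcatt

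Rab11, summit 1858 bp downstream of the TSS, chr3R:21113216-21113316, plus strand: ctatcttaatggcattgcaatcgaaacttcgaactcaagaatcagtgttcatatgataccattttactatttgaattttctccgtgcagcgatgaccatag

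Rab23, summit 2294 bp downstream of the TSS, chr3R:5683090-5683190, minus strand: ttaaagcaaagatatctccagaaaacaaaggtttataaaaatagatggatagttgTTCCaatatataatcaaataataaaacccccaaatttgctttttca

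Rab14, summit 592 bp downstream of the nearest TSS, chr2L:14355687-14355787, plus strand: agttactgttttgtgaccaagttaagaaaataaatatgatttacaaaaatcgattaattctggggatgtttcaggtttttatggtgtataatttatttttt

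Rab9, summit 1878 bp downstream of the TSS, chr2L:19434402-19434502, plus strand: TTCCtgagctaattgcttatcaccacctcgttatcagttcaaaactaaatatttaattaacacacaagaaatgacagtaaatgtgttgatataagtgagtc

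The core GGAA, on either strand, was within 50 bp of 7 of the 12 Rab summits (58.3%), and of 56.2% of all IDR summits, a like share. It stood once each in the Rab5, Rab9 and intronic Rab23 windows printed above, and in none of the Rab11, Rab14 and promoter Rab23 windows printed. The longer ETS string CGGAAG was at 0 of the 12 and at 7.31% of all IDR summits, and CCGGAAGT at 0 of the 12 and at 0.759%. With only 12 windows, a difference of this size was not detectable. At the 25 weaker pooled summits in Rab promoters, CGGAAG occurred at 1, against 3.84% of all such summits at promoters. A match of letters in a window is a description of the sequence and does not show a bound site.

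Rab5, which drives fusion and maturation of early endosomes, had the strongest summit of the family. The gene lies on the minus strand of 2L from 2359142 to 2365273 and has 6 annotated TSSs. Its strongest summit, at 2L 2363719, had a signal of 752 and ranked 377 of 5004. In replicate 1 the signal there was 257 (rank 439 of 30000) and in replicate 3 it was 497 (rank 355). Both replicates thus placed it near the top of their lists. The summit lies 215 bp upstream of an internal TSS at 2363504 and, for transcripts that start farther upstream, in an intron. A second IDR summit, at 2L 2365577 with a signal of 201 (rank 4402), lay 304 bp upstream of the outermost Rab5 TSS and 17 bp from the TSS of Axud1, a gene that starts nearby. Its replicate signals were 77.0 and 140.1, at ranks 4738 and 3926. With 8 pooled summits from 2 kb upstream to its end, Rab5 also had the most of any Rab gene, and 7 of these were within 500 bp of one of its TSSs. A gene with many TSSs has more such windows than a gene with 1.

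Rab11, the Rab of recycling endosomes that returns cargo to the cell surface, had its IDR peaks in introns. The gene lies on the plus strand of 3R from 21111408 to 21116146. The stronger summit, at 3R 21113266, had a signal of 731 (rank 403) and lay 1858 bp downstream of the only TSS. The replicate signals were 228 (rank 576) and 507 (rank 334), again a high rank in both lists. The other, at 3R 21112524 with a signal of 259.9, lay 1116 bp downstream, with replicate signals of 120.5 and 149. At the TSS itself, 7 bp downstream, the pooled list held only a weak summit of 95.8, found within 100 bp in replicate 3 (78.6) but not in replicate 1.

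Among the other Rabs of early endosomes and recycling, Rab14 had an IDR summit and Rab4, Rab21 and Rab35 had none. The Rab14 summit, in an intron 592 bp from the nearest TSS (2L 14355737), had a signal of 348, with 131 in replicate 1 and 219 in replicate 3. No pooled summit was found in either window of Rab4, Rab21 or Rab35, although replicate 1 alone had a promoter summit at Rab4 (36.1) and Rab35 (41.0). The nearest IDR summits to their TSSs were 4.83, 57.9 and 267 kb away. Of the 6 genes of this role, 3 held an IDR summit in the wider window (exact binomial interval 11.8 to 88.2%, all genes 24.7%), and 1, Rab5, at a promoter (interval 0.421 to 64.1%, all genes 15.6%).

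Rab8 and Rab23 were the other genes with an IDR summit at the promoter, and in both the summit was also near the start of a neighbouring gene. With such summits left out, 1 Rab gene (Rab5) kept an IDR promoter summit (3.03%), against 9.42% of all genes. Rab8 carries post-Golgi vesicles to the plasma membrane. Its summit, at 3L 19870979 in the 5′ UTR and 99 bp from a TSS, had a signal of 231 (rank 3528) and lay 160 bp from a TSS of Usp32, a ubiquitin protease gene. In replicate 3 the signal was 181 (rank 2559), but in replicate 1 the nearest summit within 100 bp had only 24.8 (rank 22687). Allowing 500 bp from a TSS, the best summit of replicate 1 reached 47.9 (rank 10003). The ratio of replicate 3 to replicate 1, 7.29, was the largest among the 12 summits, whose median was 1.75. The Rab8 peak therefore rests mainly on replicate 3.

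Rab23, known in flies for its part in planar cell polarity of wing hairs, had an IDR summit at 3R 5685624, 190 bp upstream of its TSS. The same summit lay 231 bp from a TSS of plx, which encodes a protein with a TBC domain, the domain of Rab GTPase-activating proteins. Its signal was 214 (rank 4002), with 106 (rank 2668) in replicate 1 and 112 (rank 5587) in replicate 3. A stronger summit lay in an intron of Rab23, at 3R 5683140 and 2294 bp downstream of the TSS, with a signal of 426 (rank 1214). Both replicates held that one, at 164 (rank 1133) and 260.0 (rank 1339).

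**Figure D2:**
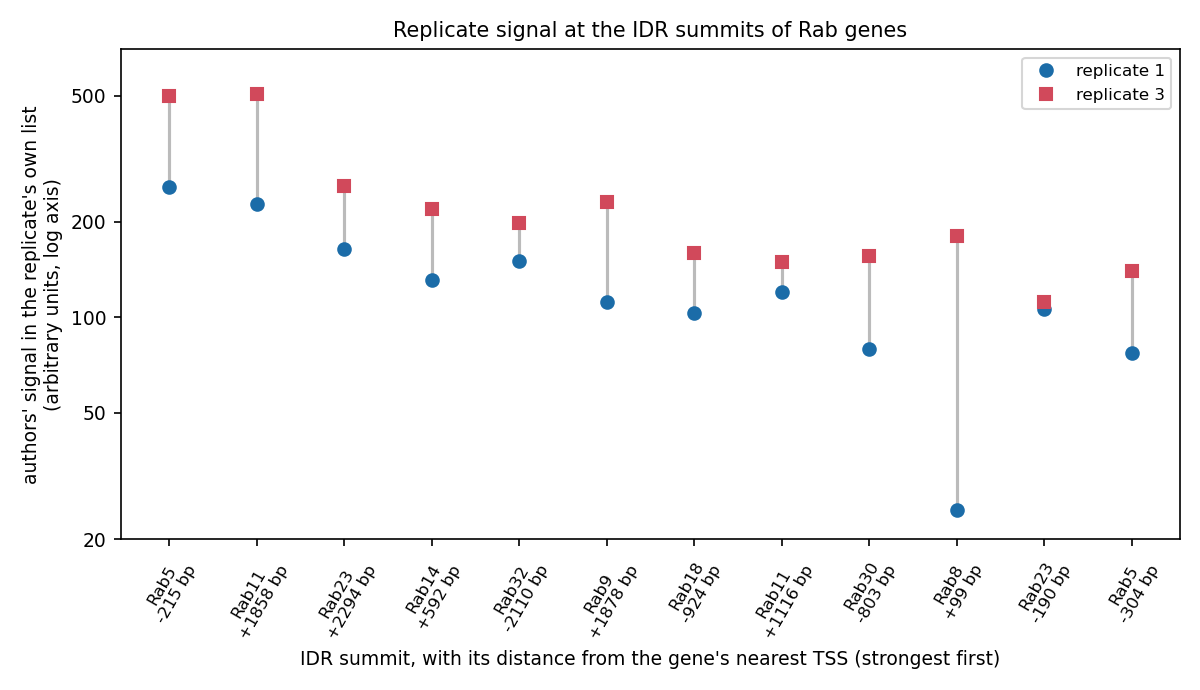
Signal of the 12 IDR summits of Rab genes in each replicate's own list (vertical log axis, arbitrary units), ordered by pooled signal, with the distance to the gene's nearest TSS below each. Circles are replicate 1 and squares replicate 3. Replicate 3 is above replicate 1 at all 12, with the widest gap at Rab8 (24.8 and 181).

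Replicate 3 gave the higher signal at each of the 12 summits, by 1.06 to 7.29 times. The same ratio over all IDR summits had a median of 1.78, and its 5th and 95th percentiles were 1.09 and 3.09. The Rab median of 1.75 is close to that of all summits, while Rab8 lies above this range and the Rab23 promoter summit just below it. Ranks within a list were compared in place of signals. When each replicate list was cut to its 5004 strongest peaks, replicate 1 had promoter summits at Rab2, Rab5 and Rab23 and replicate 3 at Rab1, Rab5, Rab8 and Rab32. Rab5 was the only gene on both. These are 9.09% and 12.1% of the Rab genes, against 18.1% and 14.5% of all genes in replicates 1 and 3. In the wider window Rab5, Rab9, Rab11, Rab14, Rab18, Rab23, Rab30 and Rab32 were on both cut lists. The share on both cut lists was not counted over all genes for either window. Whether the replicates share more or fewer Rab genes than other genes therefore cannot be read from these names. In the wider window the cut lists of replicates 1 and 3 held 27.3% and 30.3% of the Rab genes, against 27.1% and 23.7% of all genes.

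Among Rabs of the late endosome and lysosome, Rab9 and Rab32 had intronic IDR summits of nearly equal height. Rab9 works in transport from late endosomes to the Golgi. Its summit, 1878 bp downstream of the TSS at 2L 19434452, had a signal of 339 (rank 1821), with 112 in replicate 1 and 231 in replicate 3. Rab32 serves lysosome-related organelles such as the pigment granules of the fly eye. Its summit at 2R 9183609, in an intron and 2110 bp upstream of the nearest of its 5 TSSs, had a signal of 339 (rank 1820), with 151 and 198 in replicates 1 and 3. The outermost Rab32 TSS had a weaker summit 78 bp downstream, with a signal of 173 at rank 5528, not far outside the IDR list. Rab7, which directs fusion with lysosomes, had a summit of 123 placed 10 bp from a TSS. Rab39 had only 1 of 46.3, which neither replicate matched within 100 bp. Within 500 bp of the Rab39 TSS, replicate 1 did have a summit of 57.6 (rank 7621), and replicate 3 had none.

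Of the secretory Rabs, none had an IDR summit at its own promoter, although 4 of 5 had a pooled summit there. The exact binomial intervals, 0 to 52.2% and 28.4 to 99.5%, hold the shares of all genes, 15.6% and 38.7%. Rab2, which acts at the Golgi and in lysosome fusion, came closest, with a signal of 179.8 at rank 5200, 83 bp downstream of its TSS and 161 bp from a TSS of Mob4. Replicate 1 had 75.0 there (rank 4973) and replicate 3 had 109 (rank 5764). Rab1, required for transport from endoplasmic reticulum to Golgi, had 144 (rank 7124) at 29 bp, with 30.8 in replicate 1 and 121 in replicate 3. Its ranks in replicates 1 and 3 were 17792 and 4902. Rab6, a Golgi Rab, had 87.2 at 22 bp, and Rab18, linked to endoplasmic reticulum and lipid droplets, 68.2 at 141 bp upstream.

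Rab18 and Rab30 met the wider rule through summits upstream of the gene. That of Rab18, at X 5672736 with a signal of 265, lay 924 bp upstream of its TSS and 2 bp from the TSS of RpL35, a gene for a cytosolic ribosomal protein. Its replicate signals were 103 and 159.9. Rab30 is a Rab of the Golgi. Its summit, at 2L 7033409 with a signal of 235, lay 803 bp upstream and inside the neighbouring gene Caper, which encodes a splicing factor, and over 500 bp from every protein-coding TSS. Its replicate signals were 79.4 and 156.

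Rabs of exocytosis and regulated secretion other than Rab8 had weak summits or none at their promoters. Rab10, which directs polarised secretion of basement membrane proteins, had a summit of 61.0 placed 14 bp from its TSS. It was found in replicate 3 (31.4) and had no match within 100 bp in replicate 1. Within 500 bp of the Rab10 TSS, the best summit of replicate 1 reached 29.2. Rab3, the Rab of synaptic vesicles, had a summit at 111 bp that ranked 21114 in the pooled list, 22472 in replicate 1 and 27764 in replicate 3, low in all of them. Rab26 and Rab27, Rabs of secretory vesicles and granules, had pooled summits only in the wider window, 2 each and none above 88.0. Of those, 1 summit at Rab26 lay near the TSS of Pc and both at Rab27 near that of rush.

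**Figure D3:**
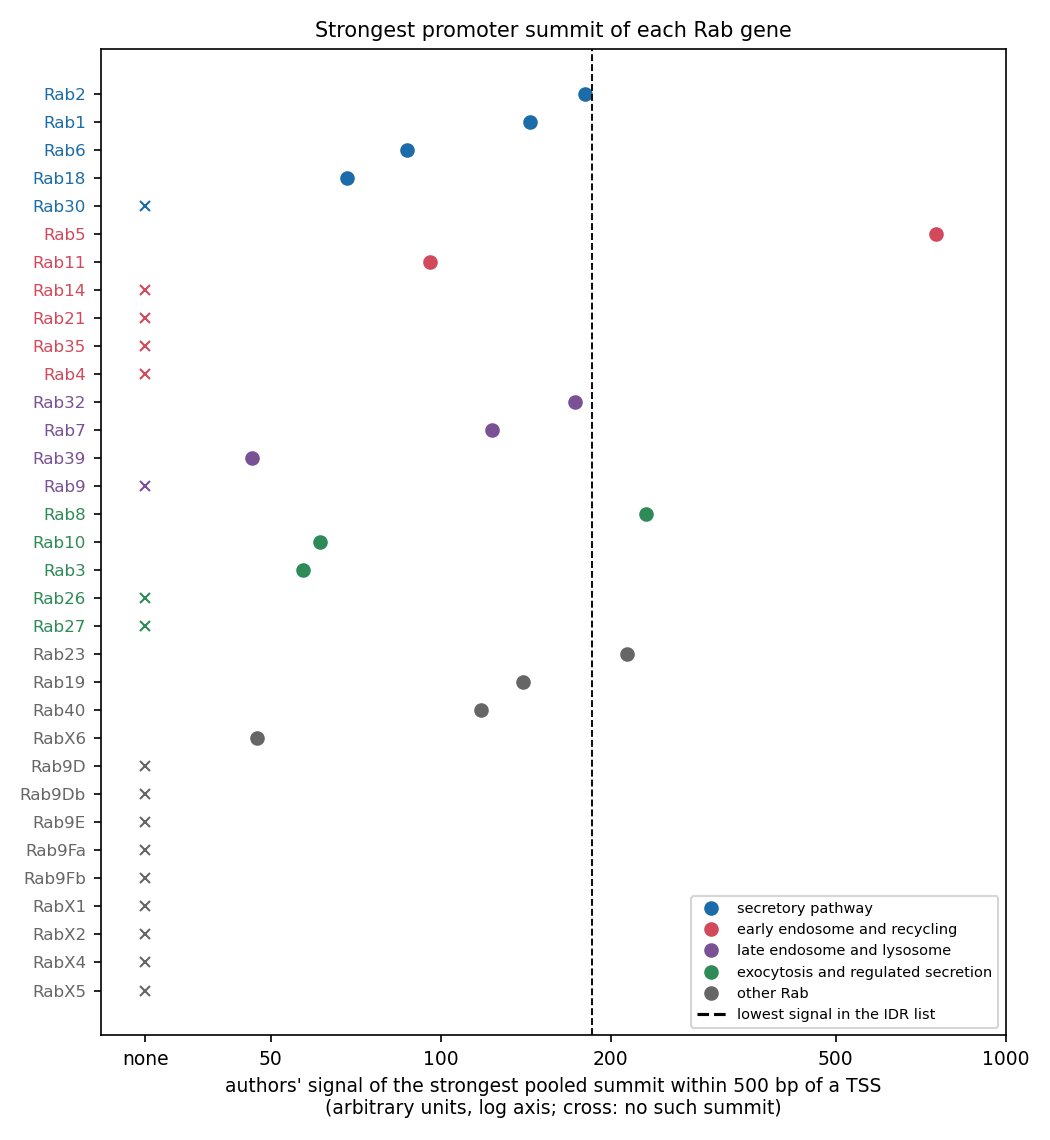
The authors' signal of the strongest pooled summit within 500 bp of a TSS (horizontal log axis, arbitrary units) for each of the 33 Rab genes, coloured by role. Crosses mark the 17 genes with none, and the dashed line is the lowest signal in the IDR list, 185. Only Rab5 (752), Rab8 (231) and Rab23 (214) lie above it, while Rab2 (179.8) and Rab32 (173) lie just below.

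Of the Rabs with no role assigned here, Rab23 has been described. Rab19 had a promoter summit of 139.7 at 68 bp, with 65.4 in replicate 1 and 77.3 in replicate 3, and its nearest IDR summit was that of the neighbouring Arl5 gene, 2.47 kb from the nearest Rab19 TSS. Rab40 had 118 at 163 bp upstream, matched in replicate 3 (114) but not in replicate 1, whose best summit within 500 bp was 24.4. RabX6 had 47.2 at 37 bp, matched in replicate 3 (36.3), and no replicate 1 summit within 500 bp of its TSS. RabX1, RabX2, RabX4 and RabX5 had no pooled summit in either window, and of these RabX1 alone had a promoter summit in a replicate list (41.8 in replicate 1). Of the 5 short X-linked genes Rab9D, Rab9Db, Rab9E, Rab9Fa and Rab9Fb, only Rab9D had one, a summit of 138 at 1385 bp upstream. The gene sequences of Rab9D, Rab9Db, Rab9E and Rab9Fa are 98.5 to 99.4% identical to each other, while Rab9Fb is 85.1 to 85.4% identical to these 4. How the authors placed reads that map to several places is not given in the sources used here. An empty window at these genes, and at RabX2 (89.7% identical to Rab9D), is therefore uncertain.

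Other genes also started within 500 bp of the weaker promoter summits of Rab6 (Phae1), Rab7 (Epp), Rab10 (CG17068), Rab18 (RpL35), Rab40 (CG42258) and RabX6 (CG32483). Among the 16 Rab genes with a pooled promoter summit, the strongest was within 100 bp of a TSS in 10 (62.5%), against 35.3% of the 5398 genes of the genome with such a summit. The median distance was 80.5 bp, against 148 bp. In the related lists described below, the share within 100 bp was 63.6% (Rab effectors), 47.1% (Rab cycle genes) and 30.4% (other small GTPases). Only 3 of the 16 (18.8%) reached the IDR list, against 40.3%. The median signal was 121, against 152 genome-wide. Of the 13 Rab genes whose strongest promoter summit missed the IDR list, 8 (61.5%) had a summit within 100 bp of it in both replicates and 1, Rab39, in neither; over all genes the share in both was 52.9%. These counts cover only genes that had a pooled summit, and no test was made of them.

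Rab genes had a median length of 2445 bp, against 2166 bp for all genes, and 24 of 33 (72.7%) had 1 TSS, against 73.5%. All 3 genes with an IDR promoter summit were among the 18 Rab genes that have another protein-coding TSS within 1 kb. That is 16.7% of the 18, against 20.5% of all genes with such a neighbour. The 15 without such a neighbour had none, where 11.9% of all genes of that kind had one. The exact binomial interval for these 15, 0 to 21.8%, holds that share. By arm, 8 of 20 autosomal Rab genes (40.0%, exact binomial interval 19.1 to 63.9%) held an IDR summit in the wider window, against 24.7% of all autosomal genes. On the X, 1 of 13 did (7.69%, interval 0.195 to 36.0%), against 24.8%, and that was Rab18 with the summit at RpL35. Within gene bodies alone, on all arms, 17 of the 33 Rab genes had a pooled summit (51.5%), against 29.4% of all genes. There 7 had an IDR summit (21.2%), against 13.4%. No interval was computed for these gene body shares. The X-linked Rab genes are also shorter than the autosomal ones, with a median of 986 bp against 3150.0 bp. Both arm intervals of the IDR shares hold the share of all genes. In the pooled list, 16 of 20 autosomal Rab genes (80.0%, interval 56.3 to 94.3%) had a summit in the wider window. The 48.4% of all autosomal genes lay outside that interval. On the X, 6 of 13 did (46.2%, interval 19.2 to 74.9%), against 52.0%. Among Rab genes of 1 to 10 kb, 19 of 25 did (76.0%, interval 54.9 to 90.6%), against 47.6%. Under 1 kb, 2 of 7 did (28.6%), against 32.9%. The part of length, copies and arm was not tested.

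Genes that act on Rabs were next described as partners in the same cycle. Of 26 genes for exchange factors, GTPase-activating proteins and other parts of the Rab cycle, 9 had an IDR promoter summit (34.6%, exact binomial interval 17.2 to 55.7%), against 15.6% of all genes. RN-tre, a Rab GTPase-activating protein, had the highest signal, 776 at 18 bp, with 304 in replicate 1 and 475 in replicate 3. It was followed by spri (760.1), whose product is an exchange factor of the RIN type, which acts on Rab5, and by Mon1 (426), part of the exchange factor for Rab7. Rep, the escort protein gene, had 319.9, Rab3GAP1 298, sky 272, GAPcenA 252, plx 214 through the summit it shares with Rab23, and strat 186 with no summit within 100 bp in replicate 3.

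Of 30 genes for Rab effectors and partners, 5 had an IDR promoter summit (16.7%, interval 5.64 to 34.7%), close to the 15.6% of all genes. Rbsn-5, an effector of Rab5 at early endosomes, led with 554, with 206 and 352 in replicates 1 and 3. The Rab11 effector gene nuf reached 528, btsz 238, p115 219 and Rip11, another Rab11 effector, 186. In the wider window, 7 of the 30 genes held an IDR summit (23.3%), against 14 of the 26 Rab cycle genes (53.8%) and 24.7% of all genes.

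Other small GTPases, such as those of the Arf and Ras families, had promoter summits more often in count. Of 31 genes, 12 had one in the IDR list (38.7%, exact binomial interval 21.8 to 57.8%), against 3 of 33 Rab genes and 15.6% of all genes. A pooled one was found at 23 of 31 (74.2%), against 16 of 33 Rab genes and 38.7% of all genes. The highest signals were at CenG1A (2038), which encodes an Arf GTPase-activating protein with a GTPase-like domain, Mtl (1531), of the Rac type, and Arl1 (845), of the Arf type at the Golgi. Further genes with such a summit included Sar1 (536), Arl8 (415), Arf6 (250.3), Rac2 (218), Ras64B (206), Rala (195) and Arl5 (185). The intervals of the Rab and other small GTPase IDR shares overlap. None of the differences between these lists, the Rab genes and all genes was tested. Over all genes, 10.3% of those with 1 TSS and 30.4% of those with several had an IDR promoter summit. For Rab genes these shares were 4.17% (1 of 24) and 22.2% (2 of 9). Genes of this list and the Rab cycle list with an IDR promoter summit include some with several TSSs, such as CenG1A and Mtl (3 each), spri (6) and sky (4). They also include some with 1 TSS, such as Arl1, Arl8, Mon1 and Rep. The number of TSSs was not matched between lists, and its part was not tested.

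**Figure D4:**
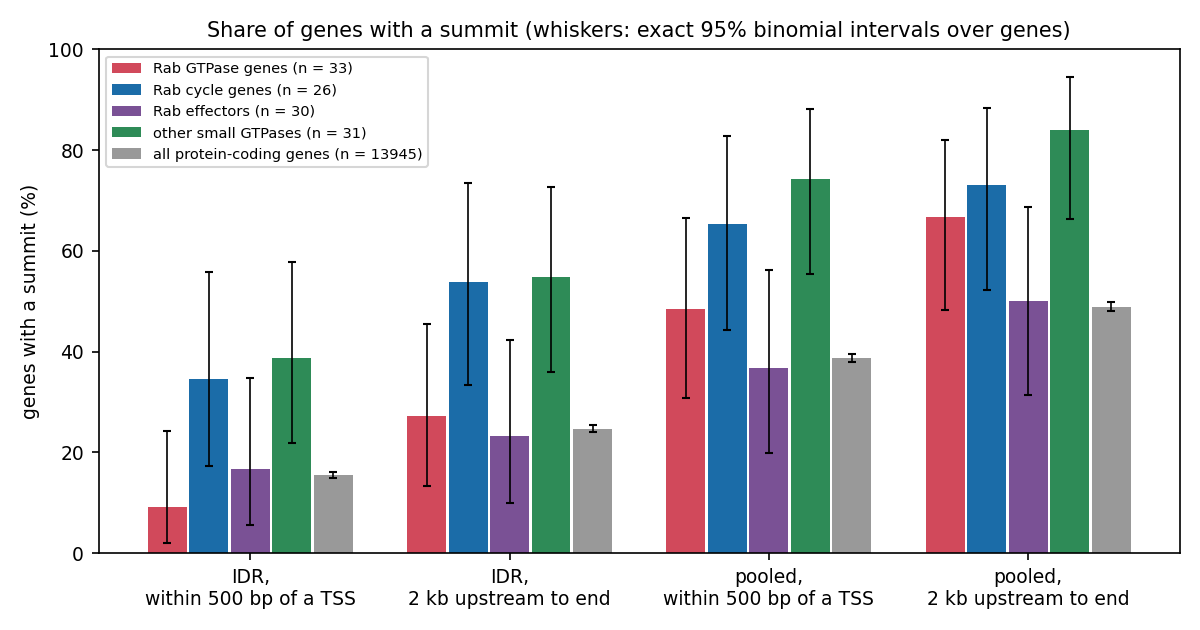
Percentage of genes with a summit (vertical axis) in the IDR or pooled list, near a TSS or from 2 kb upstream to the gene end, for the Rab genes, 3 lists of related genes and all protein-coding genes. Whiskers are exact 95% binomial intervals over genes. Rab genes stand at 9.09% for IDR promoter summits, with 38.7% for other small GTPases and 15.6% for all genes.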

How the data were processed

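Per the labels and the descriptions supplied with the peak lists, the authors aligned reads to dm6 and called peaks against a control, for each replicate and for the pooled reads, then drew up the IDR list. The lists give an interval, a signal value (treated here as a score), a summit offset and, as deposited, a −log10 q-value, which was not used because it is the same for every IDR peak. No source used here names the aligner, the peak caller, their versions or the IDR threshold.

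Summits were placed with Python 3.11.15 on every TSS of the Ensembl release 115 annotation (BDGP6.54), on 6 chromosome arms. Sequence came from RefSeq's copy of the assembly, in which 99.8% of annotated start codons read ATG. Replicate values are those of the nearest summit within 100 bp. Intervals are exact (Clopper-Pearson). Window counting was tested on simulated data.

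Members, role groups and related gene lists were chosen with earlier results of these data known, so counts stand beside those of all genes and were not tested. All members are named. Other genes are named where they start within 500 bp of a described Rab summit or, in the related lists, have an IDR promoter summit, except some that are not reported here. Of 32 effector names, 2 were not found in the annotation.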

Additional observations from a re-analysis of the deposited data

How the results depend on the processing

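The count of 3 Rab genes with an IDR promoter summit was sensitive in part to the settings. It fell to 1 (Rab5; 3.03%, all genes 8.81%) among the stronger 2502 IDR peaks, and rose to 6 (18.2%, all genes 18.8%) at 1000 bp from a TSS, where Rab14, Rab18 and Rab30 joined. It was 0 of 15 genes, fewer being eligible, with no other TSS within 1000 bp (all genes 11.9%). The pooled promoter count was 5 of 15 there (33.3%, all genes 33.7%). With promoter summits within 500 bp of another gene's TSS left out, an alternative chosen after seeing the data, the IDR promoter count was 1 (Rab5; 3.03%, all genes 9.42%) and the pooled one 8 (24.2%, all genes 26.6%). Without replicate 1 (the strongest peaks of replicate 3 alone), the IDR promoter count was 4 (12.1%, all genes 14.5%). The IDR count in the wider window was 10 (30.3%, all genes 23.7%). The pooled counts at promoters and in the wider window were 16 (48.5%, all genes 36.0%) and 21 (63.6%, all genes 47.1%). Without replicate 3, the IDR counts in these windows were 3 (9.09%, all genes 18.1%) and 9 (27.3%, all genes 27.1%). The pooled counts were then 22 (66.7%, exact binomial interval 48.2 to 82.0%, all genes 47.2%) and 25 (75.8%, interval 57.7 to 88.9%, all genes 58.5%). The share of all genes lay outside the first of these intervals and inside the second. For the pooled counts without replicate 1 it lay inside both intervals (30.8 to 66.5% and 45.1 to 79.6%). The remaining alternatives, which include the strongest part of each list and 1000 bp for the other counts, peak intervals in place of summits, symbols that merely start with Rab and a digit, a 250 bp promoter window, other gene windows, and, for the wider window, no summits at other genes' starts, stayed within 1.5 times of each count. That limit follows the Rab count alone, and the share of all genes moved too. For gene bodies alone the IDR share was 21.2%, against 13.4% of all genes, where the main window gave 27.3% against 24.7%. The pooled share was 51.5%, against 29.4%, where the main window gave 66.7% against 48.9%. No paired analysis was possible because there was 1 group. Depth is unknown, and 2 replicates limit what can be said of variation.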

Other observations

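Rab10 and Rab35 lie in the second longest of the 4998 stretches between neighbouring IDR summits in the genome. It spans 596 kb of the X, from 19892402 to 20488877, where the median stretch on the X is 9.15 kb. That median counts each stretch once, however many genes it holds. The stretch of Rab10 and Rab35 holds 69 protein-coding genes and 26 pooled summits, or 4.36 per 100 kb, against 21.3 per 100 kb over the X. Of the 69 genes, 7 have a pooled promoter summit, against 40.9% of all genes on the X. Rab6 lies in a stretch of 310.1 kb on 2L, the nineteenth longest, with 30 genes and 23 pooled summits.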
